A study of Mus musculus with 19 samples.

Results

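Embryonic, neonatal and cardiac isoforms of sarcomere proteins were examined in exercised mouse tibialis anterior muscle with and without desmin, at 2 ages. The genes are Myh3, Myh8, Tnnt2, Myl4 and Actc1, with the adult skeletal actin Acta1 as reference. This list of 6 genes was chosen with earlier results of these data known. All 6 had a probe set annotated with 1 gene symbol, out of 12393 genes measured in this way. Where a gene had more than 1 such probe set (Tnnt2 and Myl4, 2 each), the one with the highest mean over the 19 arrays stood for it. All 6 genes passed the filter on dim genes, which kept the upper 60% by mean level, but Myh8, Tnnt2 and Myh3 lay near its edge at 49.4%, 53.4% and 54.1% from the top. The cut was a mean log2 level of 6.32. Myh3 averaged 6.10 and 6.25 in the younger and older groups with desmin, so it passed only through the groups without desmin. Tnnt2 averaged 6.15 and 6.39 in the same groups, which together lie below the cut. It too passed only through the groups without desmin.

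The animals were of the 129/SVE background and were either wild-type (WT) or without desmin (KO), the intermediate filament protein that ties neighbouring myofibrils together at their Z-discs. WT_Adult (5 arrays) and KO_Adult (5 arrays) mice were 7 to 9 weeks old, and WT_Aged (5 arrays) and KO_Aged (4 arrays) mice were 12 to 14 months old. RNA was taken 12 h after 50 eccentric contractions in every group, so each comparison is between exercised muscles and no rested muscle was analysed here. Whether each array stands for its own mouse is not stated in the labels. The p-values therefore measure array-to-array spread, some of which may be technical.

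Sarcomere proteins are made from families of related genes that are switched in turn as muscle develops. Myh3 and Myh8 encode the embryonic and the neonatal myosin heavy chain, which adult limb fibres largely replace with fast and slow myosins and which return in regenerating fibres. Actc1 (cardiac alpha actin), Tnnt2 (cardiac troponin T) and Myl4 (the embryonic and atrial essential myosin light chain) are best known from heart, and developing skeletal muscle makes them as well. Acta1, skeletal alpha actin, is the main actin of adult muscle fibres.

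The actin pair, and the 2 isoforms called higher in KO muscle at both ages, are shown by the sequence around an annotated transcript start, because the results below set them against each other. Each run is 300 bases, 250 before the start and 50 from it on, 5′ to 3′, from RefSeq (GRCm38.p6), and all 6 genes had an entry there. Capitals mark 3 motifs searched on both strands: the CArG box, which serum response factor (SRF) is known to bind, MCAT (CATTCC), which TEAD factors bind, and the E-box (CANNTG), which MyoD-type factors bind. The Actc1 run lies at chr2:114052826-114053125 on the minus strand and the Acta1 run at chr8:123894726-123895025 on the minus strand. The Tnnt2 run lies at chr1:135836084-135836383 and the Myh3 run at chr11:67078050-67078349, both on the plus strand.
Actc1: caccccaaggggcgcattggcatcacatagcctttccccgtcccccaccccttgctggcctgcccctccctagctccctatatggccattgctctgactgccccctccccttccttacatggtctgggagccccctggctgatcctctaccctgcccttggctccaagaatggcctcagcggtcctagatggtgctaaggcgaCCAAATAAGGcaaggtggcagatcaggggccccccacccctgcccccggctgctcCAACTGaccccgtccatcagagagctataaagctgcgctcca
Acta1: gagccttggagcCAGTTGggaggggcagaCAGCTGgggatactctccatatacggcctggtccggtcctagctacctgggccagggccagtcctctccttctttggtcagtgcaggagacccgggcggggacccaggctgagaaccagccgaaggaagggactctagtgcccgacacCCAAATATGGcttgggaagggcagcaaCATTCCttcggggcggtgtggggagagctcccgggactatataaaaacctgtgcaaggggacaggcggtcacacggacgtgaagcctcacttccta
Tnnt2: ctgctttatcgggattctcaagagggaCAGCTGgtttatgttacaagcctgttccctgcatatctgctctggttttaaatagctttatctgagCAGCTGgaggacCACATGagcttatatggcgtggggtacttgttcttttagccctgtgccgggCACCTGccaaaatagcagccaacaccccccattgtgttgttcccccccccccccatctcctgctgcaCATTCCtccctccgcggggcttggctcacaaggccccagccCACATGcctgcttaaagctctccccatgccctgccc
Myh3: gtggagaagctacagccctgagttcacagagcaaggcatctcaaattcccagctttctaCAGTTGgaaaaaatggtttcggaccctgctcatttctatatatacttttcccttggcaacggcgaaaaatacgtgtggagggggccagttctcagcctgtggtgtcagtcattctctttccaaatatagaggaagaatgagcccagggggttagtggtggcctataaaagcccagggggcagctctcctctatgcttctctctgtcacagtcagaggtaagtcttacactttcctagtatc

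A CArG box stood 47 to 38 bases before the start in Actc1 and 73 to 64 bases before it in Acta1, and in no other window of the 6 genes. Distances count from the annotated start, and whether transcription begins there in this muscle was not tested. It occurred in 1.63% of the 32851 mouse promoter windows of this length. MCAT was found in the Acta1 window and in the Tnnt2 window shown, 46 to 41 and 27 to 22 bases before the start, and in 14.7% of all windows. The E-box is common, at 72.3% of all windows. It was matched 5 times in the Tnnt2 window shown, 2 times each in Acta1, Myh8 and the other Tnnt2 window, once each in Actc1 and Myh3, and not at all in Myl4. None of the 3 motifs overlapped in the runs shown, and a match describes letters, not binding.

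Values are deposited MAS5 intensities, which are arbitrary units of array brightness, and differences between groups are log2 differences of quantile-normalized values from limma, with a standard error (SE) and a p-value adjusted by Benjamini-Hochberg over all 7436 genes tested. A gene is said to rise or fall at an adjusted p under 0.05. Intensities of different genes are not compared, because each probe set has its own brightness. Des, the deleted gene, read 10749 to 22313 on the WT arrays and 72.7 to 879 on the KO arrays. Poly-A control RNA gave signal on all 5 WT_Aged arrays and on KO_Adult replicates 3, 4 and 5, and almost none on the other 11 arrays. The middle 18S ribosomal RNA probe set divided the arrays in the same way, at 5835 to 19660 against 29.1 to 181. The labels name no batch; this split is called the control-signal batch here, and what made it was not tested. The comparisons of aged KO against aged WT and of aged with adult WT lie wholly across it, and its effect there can be estimated only through the KO_Adult arrays. The ratio of Gapdh signal at the 3′ end to that at the 5′ end, which is high in degraded RNA, was under 1 on all arrays but KO_Aged replicates 2 (8.61) and 3 (5.01). The same ratio for Actb did not set them apart, at 1.28 and 1.14 against 0.45 to 1.36 on the others. Whether RNA was degraded on these 2 arrays was not tested. Results are therefore also given with a batch term or without these 2 arrays where that matters.

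In adult muscle, desmin loss went with more Myh3, Myh8 and Tnnt2 signal and much less Actc1. Of the 6 genes, 3 rose and 1 fell, while 7.21% of all genes tested rose and 9.39% fell. The 6 were chosen with earlier results known, and Myh3 and Tnnt2 passed the filter through the KO groups. Counts and medians are therefore a description. The median difference was 0.65 over the 6 genes and 0.04 over all genes. In aged muscle 2 of the 6, Myh3 and Tnnt2, rose, and Actc1 fell. Of all genes, 17.1% rose and 12.3% fell in that comparison, and the median was 0.63 over the 6 genes and 0.08 over all genes. The 6 differences ran from -2.35 (Actc1) to 1.44 (Tnnt2) in adults and from -2.34 (Actc1) to 1.73 (Myh3) in aged muscle. Neither median of the 6 genes is thus a shared shift.

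**Figure D1:**
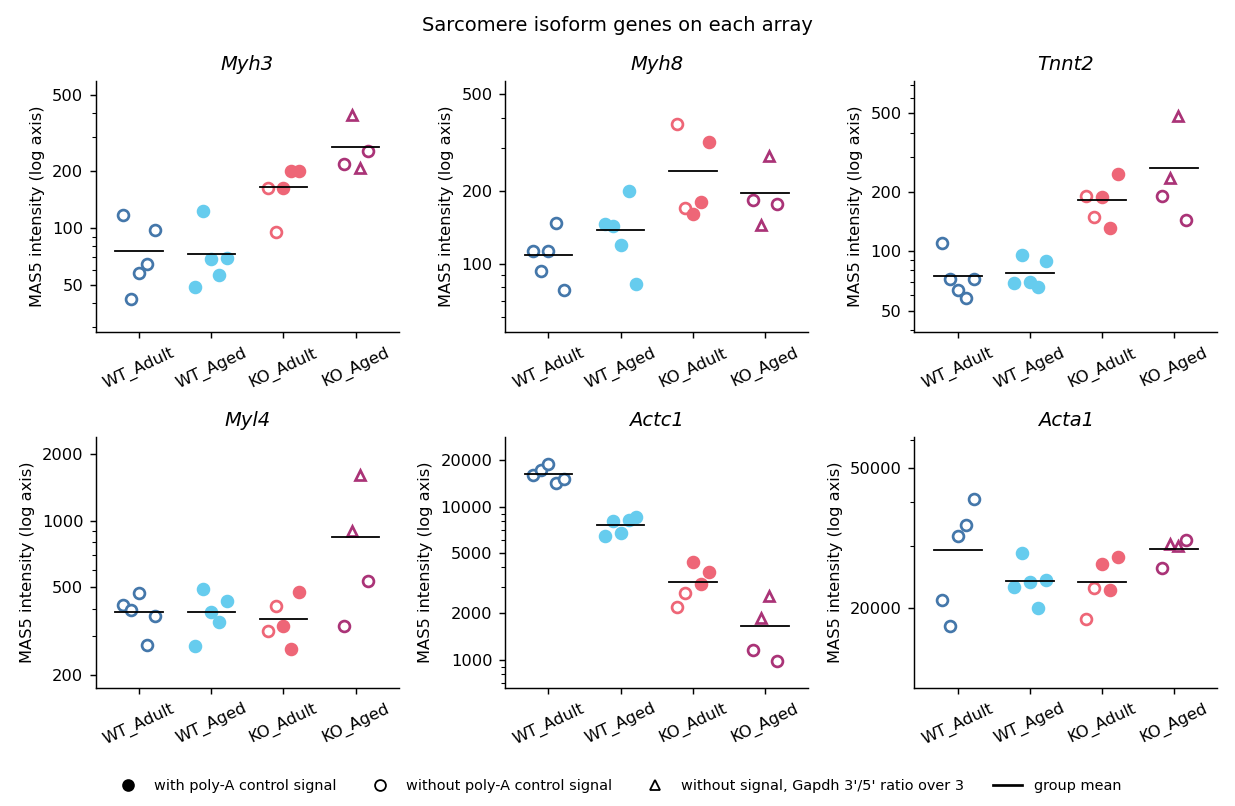
Deposited MAS5 intensity (log axis) of the main probe set of each of the 6 genes, 1 point per array, with the group mean as a line; filled points carry the poly-A control signal and triangles are the 2 arrays with a high Gapdh ratio. Actc1 steps down from WT_Adult (14189 to 19102) to KO_Aged (980 to 2614), while the KO arrays lie above most WT arrays for Myh3 and Tnnt2.

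**Figure D2:**
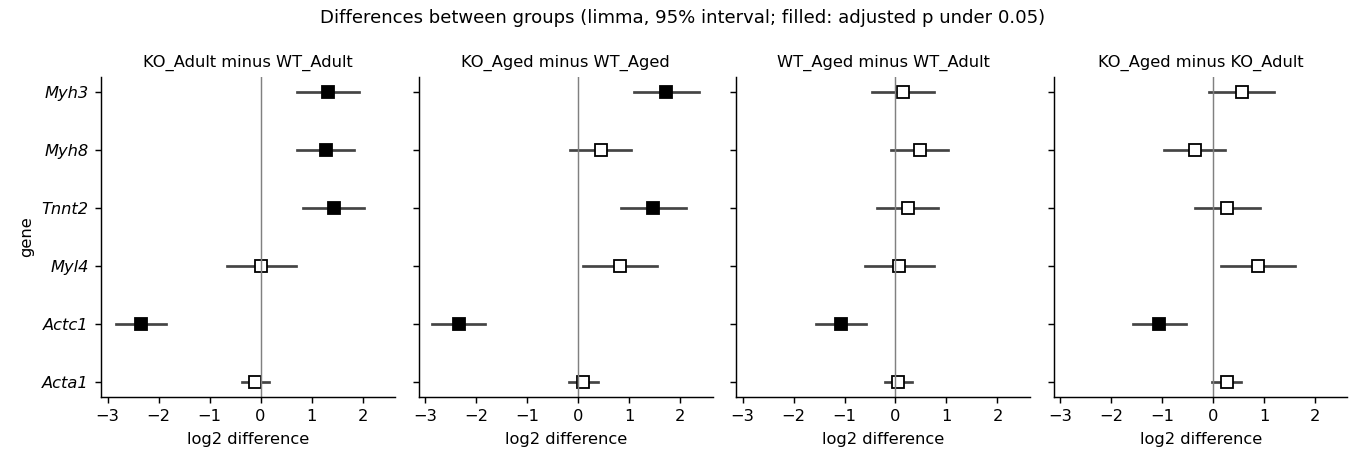
Log2 difference (squares) and 95% interval (lines) from limma for each gene, in 4 comparisons between groups; filled squares have an adjusted p under 0.05. Actc1 is filled on the lower side in all 4 panels, and Myh3 and Tnnt2 are filled on the higher side in both KO against WT panels, with Myh8 in the adult one.

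Actc1, the cardiac actin, differed most. Its intensity was 16124, 17272, 19102, 14189 and 15149 on the 5 WT_Adult arrays, and 6447, 7988, 6732, 8187 and 8479 on the WT_Aged arrays. The KO_Adult arrays read 2203, 2712, 4327, 3135 and 3752, and the KO_Aged arrays 1147, 1876, 2614 and 980. All WT arrays were above all KO arrays, and the WT_Adult arrays were all above the WT_Aged arrays. On normalized values the KO and WT groups did not overlap for 747 of the 7436 genes tested in adults and for 2335 in aged animals. The WT means were 16367 ± 1909 (SD, n = 5) in adults and 7567 ± 914 (SD, n = 5) in aged animals. The KO means were 3226 ± 838 (SD, n = 5) in adults and 1654 ± 749 (SD, n = 4) in aged animals.

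In adult KO muscle Actc1 fell by 2.35 on the log2 scale (SE 0.23, limma adjusted p = 4.77e-06), a 5.11-fold difference. In aged KO muscle it fell by 2.34 (SE 0.25, limma adjusted p = 5.58e-06), a 5.07-fold difference. These drops differed by 0.01 between ages (95% interval -0.70 to 0.72, limma adjusted p for the interaction = 0.985). The fall in KO muscle kept its call in each of 34 alternative settings for adults (-2.76 to -2.13) and 32 for aged animals (-2.88 to -1.75). Within the arrays without poly-A signal, the 2 KO_Adult arrays were lower than the 5 WT_Adult arrays by a mean log2 difference of -2.71. Within those with signal, the 3 KO_Adult arrays were lower than the 5 WT_Aged arrays by -1.05, although age differs too in that pair.

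Actc1 was lower with age in both genotypes. It fell by 1.06 in WT muscle (SE 0.23, limma adjusted p = 0.00240), with groups that did not overlap, as for 29.3% of all genes tested. In KO muscle it fell by 1.05 (SE 0.25, limma adjusted p = 0.0167), with groups that overlapped. It was the only one of the 6 genes called with age, where 17.9% of all genes rose and 21% fell in WT muscle, and 3.71% rose and 3.6% fell in KO muscle. Both age differences lost their call with the batch term, at -1.65 (limma adjusted p = 0.115) in WT and -0.70 (limma adjusted p = 0.126) in KO. Both passed when the batch term was joined with leaving out the 2 arrays of high Gapdh ratio, at -1.65 (limma adjusted p = 0.0122) and -1.24 (limma adjusted p = 0.00800). The fall in KO muscle also lost its call without KO_Aged replicate 4 (-0.84, limma adjusted p = 0.0573), with only the compared groups in the fit (-1.05, limma adjusted p = 0.133) and on the arrays without poly-A signal. There it was -0.70 (limma adjusted p = 0.260), or -1.24 without the 2 arrays of high Gapdh ratio (limma adjusted p = 0.0862).

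Myh3, the embryonic myosin heavy chain, was higher on most KO arrays. Its intensity was 116, 42.3, 57.7, 64.3 and 97.0 in WT_Adult and 48.6, 122, 68.4, 56.6 and 69.1 in WT_Aged. The KO_Adult arrays read 163, 95.4, 162, 200 and 198, and the KO_Aged arrays 216, 395, 206 and 254. Of the KO arrays only KO_Adult replicate 2 lay within the WT range.

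Myh3 rose by 1.32 in adult KO muscle (SE 0.29, limma adjusted p = 0.00480, 2.50-fold) and by 1.73 in aged KO muscle (SE 0.31, limma adjusted p = 0.000467, 3.33-fold). With no filter on dim genes the limma adjusted p was 0.0112 in adults and 0.00126 in aged animals. Adding the batch term took the adult call away (0.998, limma adjusted p = 0.113) and kept the aged one (2.27, limma adjusted p = 0.0176). The aged difference was also called when the 2 arrays of high Gapdh ratio were left out, at 1.48 (limma adjusted p = 0.0126). The interaction of genotype and age was 0.41 (95% interval -0.47 to 1.30, limma adjusted p = 0.490). Age alone was not called: the difference was 0.15 in WT (limma adjusted p = 0.710) and 0.56 in KO (limma adjusted p = 0.287).

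Myh8, the neonatal myosin heavy chain, differed in adults. It read 113, 93.3, 113, 148 and 78.1 in WT_Adult and 379, 170, 160, 180 and 320 in KO_Adult. These groups did not overlap, as for 747 of the 7436 genes tested. Myh8 rose by 1.28 (SE 0.27, limma adjusted p = 0.00363, 2.42-fold), and by 1.46 with the batch term (limma adjusted p = 0.0234). On the arrays without poly-A signal alone, with 2 KO_Adult arrays, the difference was 1.43 and did not pass (limma adjusted p = 0.0748). The WT_Aged arrays read 146, 142, 119, 200 and 82.6 and the KO_Aged arrays 183, 144, 277 and 177, which overlapped. The aged difference was 0.45 (95% interval -0.15 to 1.05, limma adjusted p = 0.245). The difference between the 2 genotype effects was -0.83 (95% interval -1.65 to -0.01) and did not pass (limma adjusted p = 0.128), so a smaller effect in aged muscle was not shown.

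In the mouse annotation (GRCm38.p6) Myh3 and Myh8 stand in 1 cluster on chromosome 11, in the order Myh3, Myh2, Myh1, Myh4, Myh8 and Myh13. The 3 adult fast myosins between them were not called in adult KO muscle, with differences of -0.23 for Myh2, 0.09 for Myh1 and -0.03 for Myh4. In aged KO muscle Myh2 rose by 1.49 (SE 0.27, limma adjusted p = 0.000648), but not with the batch term (1.20, limma adjusted p = 0.122). Myh1 at -0.17 and Myh4 at 0.00 were not called there.

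Tnnt2, cardiac troponin T, separated the genotypes. It read 110, 72.0, 63.5, 58.2 and 72.2 in WT_Adult and 69.3, 95.3, 70.1, 66.2 and 88.7 in WT_Aged. The KO_Adult arrays read 190, 149, 187, 131 and 247, and the KO_Aged arrays 191, 236, 487 and 144. All KO arrays were above all WT arrays, and the highest, KO_Aged replicate 3, had a high Gapdh ratio. Groups that did not overlap were found for 747 of the 7436 genes tested in adult and 2335 in aged KO against WT. On the second Tnnt2 probe set the genotypes overlapped, with 98.8 on KO_Adult replicate 1 and 119 on WT_Aged replicate 2.

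Tnnt2 rose by 1.44 in adult KO muscle (SE 0.29, limma adjusted p = 0.00240, 2.71-fold) and by 1.48 in aged KO muscle (SE 0.30, limma adjusted p = 0.00151, 2.79-fold). With no filter on dim genes the limma adjusted p was 0.00629 in adults and 0.00370 in aged animals. The differences became 1.40 (limma adjusted p = 0.0377) and 1.54 (limma adjusted p = 0.0821) with the batch term, so the aged call was lost. On the arrays without poly-A signal alone the adult difference was 1.37 and did not pass (limma adjusted p = 0.129). Leaving out the 2 arrays of high Gapdh ratio gave an aged difference of 0.84 (limma adjusted p = 0.0492). Its second probe set, fitted with all single-symbol probe sets, gave 1.06 (SE 0.32, limma adjusted p = 0.0518) in adults and 1.32 (SE 0.34, limma adjusted p = 0.0122) in aged animals. The name of that probe set ends in x_at, the array maker's mark for probes that can match other transcripts. Age was not called, at 0.24 in WT and 0.28 in KO muscle.

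Myl4, the embryonic and atrial light chain, showed no difference called by limma. It read 413, 396, 471, 273 and 368 in WT_Adult, 271, 488, 386, 346 and 435 in WT_Aged, and 315, 411, 335, 262 and 475 in KO_Adult. The KO_Aged arrays spread more, at 332, 896, 1603 and 533, and the 2 highest are those with a high Gapdh ratio. The adult difference was 0.02 (95% interval -0.66 to 0.70, limma adjusted p = 0.975) and the aged one 0.82 (95% interval 0.09 to 1.54, limma adjusted p = 0.0822). Without those 2 arrays the aged difference was 0.01 (limma adjusted p = 0.988). Without KO_Aged replicate 1, the lowest of the group, it was 1.21 and passed (limma adjusted p = 0.00721). The second Myl4 probe set read 5.52 to 83.7 over all arrays and was not called in any comparison.

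Acta1, the adult reference, was not called by limma in any comparison. It read 21172, 17854, 32006, 34513 and 40949 in WT_Adult and 22950, 28628, 23795, 20006 and 24110 in WT_Aged. The KO_Adult arrays read 18636, 22869, 26685, 22555 and 27885, and the KO_Aged arrays 26098, 30523, 29970 and 31277. After normalization KO minus WT was -0.10 in adults (95% interval -0.37 to 0.16, limma adjusted p = 0.606) and 0.11 in aged animals (95% interval -0.17 to 0.39, limma adjusted p = 0.573). Its probe set ranked at percentile 99.66 to 99.98 on every array, a range where quantile normalization limits the differences it can show. Without normalization the values were -0.25 (limma adjusted p = 0.391) and 0.31 (limma adjusted p = 0.269). With age in KO muscle normalized Acta1 differed by 0.27 (95% interval -0.02 to 0.55, limma adjusted p = 0.246). Those normalized groups did not overlap, as for 8.15% of all genes tested. Exact permutation gave p = 0.0238 there (adjusted p = 0.0571) and p = 0.0476 in aged KO against WT (adjusted p = 0.104). Shifts of Acta1 enter the ratios below as well. The interaction was not called by limma for any of the 6 genes (1, Myh8, at an unadjusted p under 0.05), where 14.5% of all genes were called higher and 10.7% lower.

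The balance between each isoform and Acta1 was then followed within arrays, as the isoform's intensity in percent of the Acta1 intensity on the same array, without normalization between arrays. This ratio is read across groups only, since the probe sets differ in brightness. For Actc1 the WT median was 59.7% in adults (37.0% to 96.7%) and 28.3% in aged animals (27.9% to 40.9%). The KO median was 13.5% in adults (11.8% to 16.2%) and 5.27% in aged animals (3.13% to 8.72%). In the same order of groups the Myh3 median was 0.237%, 0.287%, 0.710% and 0.819%, and the Tnnt2 median 0.198%, 0.331%, 0.702% and 0.752%.

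**Figure D3:**
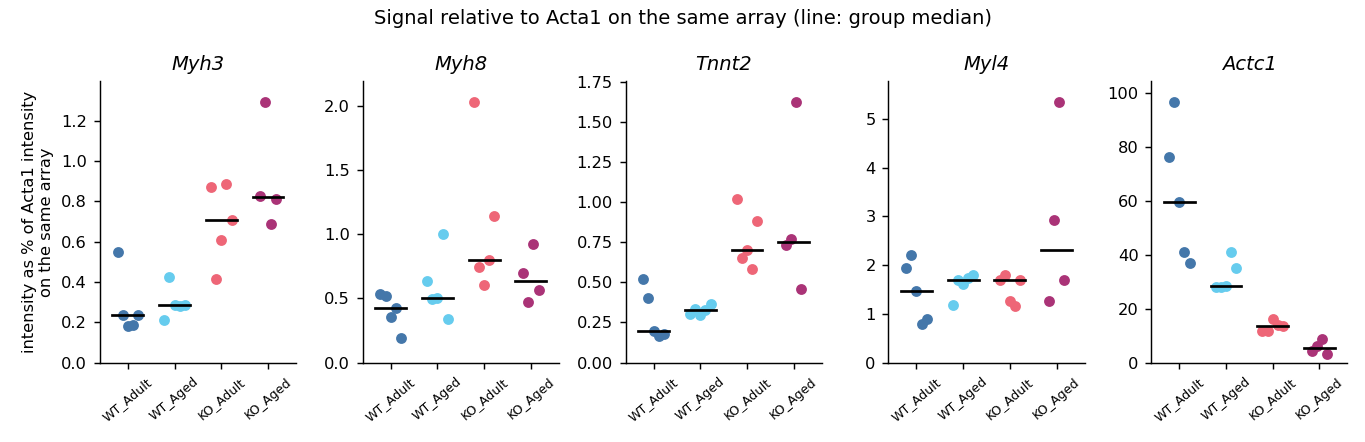
Intensity of each isoform gene in percent of the Acta1 intensity on the same array (linear axes from 0, 1 point per array, line at the group median). Actc1 falls from a median of 59.7% in WT_Adult to 5.27% in KO_Aged, and Myh3 and Tnnt2 lie higher on the KO arrays than on nearly all WT arrays.

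The ratios were compared by 2-sided exact permutation tests, 20 in all, adjusted together, and 9 passed. For Actc1 the log2 ratio differed by -2.12 in adults and -2.60 in aged animals between genotypes, and by -1.36 with age in KO muscle (exact p = 0.00794 each, the smallest these groups allow, adjusted p = 0.0227). With age in WT muscle it differed by -0.88 (exact p = 0.0159, adjusted p = 0.0353). For Tnnt2 the genotype differences were 1.47 and 1.26 (exact p = 0.00794 each, adjusted p = 0.0227). For Myh3 they were 1.36 (exact p = 0.0159, adjusted p = 0.0353) and 1.52 (exact p = 0.00794, adjusted p = 0.0227). The Myh8 ratio differed by 1.30 in adults (exact p = 0.00794, adjusted p = 0.0227) and by 0.19 in aged animals (exact p = 0.571), and no Myl4 ratio passed. On the arrays without poly-A signal the adult Myh3 ratio did not pass (1.21, exact p = 0.0952), while those of Actc1, Myh8 and Tnnt2 each had an unadjusted exact p = 0.0476.

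Across the 19 arrays the log2 values of Myh3 and Tnnt2 had a Pearson r of 0.84, those of Myh8 and Tnnt2 0.73, and those of Myh3 and Myh8 0.57. Actc1 ran against them, at r = -0.79 with Myh3, -0.71 with Tnnt2 and -0.62 with Myh8, and its r with Acta1 was -0.11. These values share the arrays, the groups and the control-signal batch, and are given as a description. The genes whose pattern was most like that of Actc1 were Grb10 (r = 0.92), Pdrg1, Smyd2, Stk40 and Esam. For Myh3 they were Lrba (r = 0.91), Krt80, Dpm1, Sln and Slc1a1, and for Tnnt2 App (r = 0.91), Ppp1r7, Sln, Avpi1 and Cd59a. For Myh8 they were S100a4 (r = 0.81), Ipo11, Avpi1, Rab7b and C9orf72, for Myl4 Chrna1 (r = 0.89), Nqo1, Slc39a3, Gars and Ercc3, and for Acta1 Tpt1 (r = 0.88), Hnrnpll, Crk, Tpm1 and Twsg1.

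Markers of muscle precursor cells were read next to the isoforms. In whole muscle, fewer cells of a type and less RNA per cell cannot be told apart. Of 9 satellite cell and myoblast genes tested, Des among them, 1 rose and 4 fell in adult KO muscle, and 1 rose and 3 fell in aged KO muscle. Des is the deleted gene. Of the 8 tested without it, 1 rose and 3 fell in adult and 1 rose and 2 fell in aged KO muscle. Myod1, the myogenic transcription factor, fell by 1.12 (SE 0.17) in adult and by 1.14 (SE 0.18) in aged KO muscle, and kept both calls with the batch term. Sdc3, a syndecan of satellite cells, fell by 1.34 in adults, and its relative Sdc4 fell by 2.25 in aged animals; neither call held with the batch term (limma adjusted p = 0.116 and 0.0895). In the other age group they were not called, at 0.04 for Sdc3 in aged and 0.96 for Sdc4 in adult KO muscle. The genes that rose were Vcam1, an adhesion receptor, by 0.78 in adult KO muscle (limma adjusted p = 0.0231), also with the term (1.06), and Cdh15, M-cadherin, by 0.60 in aged KO muscle (limma adjusted p = 0.0201), not with the term (-0.0069). Pax7 and Myf5, which mark satellite cells, were too dim to be tested. The summed intensity of the list without Des was 5235 to 6440 in WT_Adult, 3741 to 5287 in KO_Adult, 5743 to 7183 in WT_Aged and 2455 to 4772 in KO_Aged. Each gene weighs in this sum by its brightness. On the aged arrays the largest parts were Myod1 and Sdc4, with means of 2339 and 2725 in WT_Aged and 1099 and 626 in KO_Aged. The median log2 difference of the list without Des was -0.51 in adult and 0.05 in aged KO muscle.

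Of 12 genes of differentiating muscle cells and myogenic control, 1 rose and 3 fell in adult KO muscle, with a median of 0.02. In aged KO muscle 3 rose and 4 fell, with a median of -0.03. Myod1 is on this list as well as the one above, and is counted among those that fell at both ages. Ncam1, a cell adhesion molecule of young and denervated fibres, rose by 0.83 in adult KO muscle (SE 0.22, limma adjusted p = 0.0141) and by 1.34 in aged KO muscle (SE 0.23, limma adjusted p = 0.000385). Chrna1, the acetylcholine receptor alpha subunit, rose by 1.19 in aged KO muscle (SE 0.34) and was not called in adults (0.17). Cdkn1c, a cell cycle inhibitor, fell by 0.69 in adult KO muscle (SE 0.18) and by 0.53 in aged KO muscle (limma adjusted p = 0.0486). Myog, the differentiation factor, was not called in adults (0.16) and fell by 1.18 in aged KO muscle (limma adjusted p = 0.0484). With the batch term the adult calls of Ncam1 and Cdkn1c held, while in aged KO muscle Ncam1 (0.67), Chrna1 (0.67) and Myog (-1.41) were not called. The aged counts were then 1 higher and 1 lower, the latter Myod1, so the aged call of Cdkn1c was lost as well.

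Adult sarcomere genes were counted in the same way. Of 14 fast fibre genes none was called by limma in adult KO muscle (1 at an unadjusted p under 0.05) and 1, Myh2, rose in aged KO muscle, with list medians of -0.01 and 0.06. Of 11 slow fibre genes, 4 rose and 1 fell in adult KO muscle (median 0.79), and 9 rose in aged KO muscle (median 3.30). When the batch term was added, 3 rose in adults and 4 in aged animals. Sln, sarcolipin, an inhibitor of the calcium pump, rose by 5.40 in adult and by 4.72 in aged KO muscle. Myoz2, a Z-disc protein, rose by 0.86 and by 2.77, Atp2a2, the slow calcium pump, rose by 2.36 in aged KO muscle, and Myl3 fell by 1.62 in adult KO muscle but not with the batch term (-0.72).

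**Figure D4:**
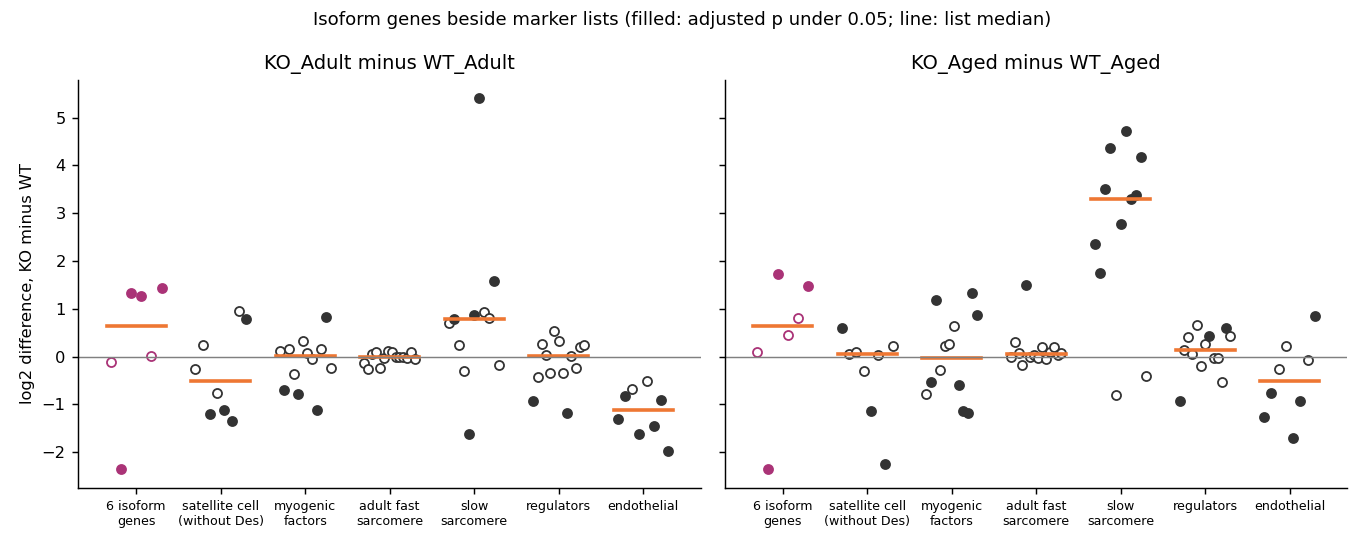
Log2 difference, KO minus WT, of the 6 isoform genes and of the tested genes of 6 marker lists, in adult (left) and aged (right) muscle; filled points have an adjusted p under 0.05 and the line is the list median. The fast fibre genes sit near 0, at medians of -0.01 and 0.06, and the slow fibre genes have a median of 0.79 in adult and 3.30 in aged muscle.

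The labels' tissue was read against heart. None of the 7 heart-restricted genes measured (Myh6, Tnni3, Myl7, Mybpc3, Ryr2, Nppa and Nppb) was bright enough to be tested, and their summed intensity was 147 to 425 on any array. Of 5 smooth muscle genes tested, 2 fell in adult KO muscle (Tagln by 1.24 and Smtn by 0.94) and 1 rose in aged KO muscle (Smtn, by 0.92). None of these 3 calls was made with the batch term.

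Of 13 genes tested that are known to regulate sarcomeric actin or the isoforms, 2 fell in adult KO muscle, and 2 rose and 1 fell in aged KO muscle, with medians of 0.01 and 0.14. Mrtfa, the SRF cofactor that senses actin, fell by 1.18 in adult KO muscle (SE 0.19, limma adjusted p = 0.000466), and by 1.01 with the batch term (limma adjusted p = 0.0212). In aged KO muscle Mrtfa was not called (-0.04, limma adjusted p = 0.905). Srf itself was not called in adults (0.21, limma adjusted p = 0.423) and rose by 0.59 in aged KO muscle (SE 0.18, limma adjusted p = 0.0207), but not with the batch term (0.23). Ankrd1, a stress-responsive titin-binding protein, fell by 0.93 in adult and by 0.92 in aged KO muscle, without passing with the batch term in either. Mef2d rose by 0.43 in aged KO muscle, but not with the batch term (0.29).

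Markers of other cell types moved as well. Of 8 endothelial genes, 6 fell in adult KO muscle, and 4 fell and 1 rose in aged KO muscle (5 and 3 fell with the batch term). The vessel transcription factor Sox18 fell by 1.45 and by 0.93 and kept both calls with the term, and the receptor Tie1 fell by 1.98 in adults and rose by 0.86 in aged KO muscle, the latter not with the term (0.15). Egfl7, a vessel growth factor, fell by 0.82 and by 0.77, and Sox17 fell by 1.71 in aged KO muscle. Their summed intensity on adult arrays was 5109 to 6478 (WT) against 2491 to 3015 (KO), and on aged arrays 4082 to 5082 (WT) against 2453 to 3264 (KO). By limma, no macrophage gene of 6 and no neutrophil gene of 3 was called between genotypes at either age; at an unadjusted p under 0.05 there were 2 and 1 in adults and 0 and 0 in aged animals. With age, 3 macrophage and 3 neutrophil genes rose in WT muscle and 2 and 2 in KO muscle. When the batch term was added, the counts were 0 and 0 in WT and 2 and 1 in KO muscle. The summed neutrophil intensity went from 408 to 1516 in adult to 2331 to 12309 in aged WT muscle, and from 413 to 4112 in adult to 6348 to 11969 in aged KO muscle. Of 5 fibroblast genes, Col1a1 fell by 2.67 in adult KO muscle and rose by 3.71 in aged KO muscle, and Col3a1 rose by 1.86 in aged KO muscle. None of these 3 collagen calls was made with the batch term. Of 2 Schwann cell genes, Mbp, a myelin protein, rose by 1.21 in aged KO muscle but not with the batch term (0.86). The part of these cells in the isoform differences was not tested.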

How the data were processed

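Expression was measured with 1 Affymetrix array per sample in 19 samples of 4 groups. RNA came from an RNeasy kit and was turned into biotin-labelled cRNA by Affymetrix's standard method, per the labels' protocols. Each probe set has 1 linear intensity per array, deposited by the authors from MAS5 (named in the submitters' processing notes). The MAS5 version and scaling target are not given in the sources used here. Present and absent calls were not used.

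Of 22690 probe sets, 64 were controls. Of the rest, 20380 had 1 gene symbol in the platform annotation, 691 several and 1555 none, and only the first kind was used. Symbols were checked through Entrez IDs against RefSeq, and 0 changed. A pseudocount of 4.76 (percentile 10 of all values) was added before log2 was taken, so a fold understates the change of dim genes. Array medians spanned 0.63 log2, above a limit of 0.5, so the arrays were quantile normalized. Of 12393 genes, the 7436 with the highest means (60%) entered the test with limma 3.58.1 under R 4.3.3, using lmFit and eBayes with 1 mean per group and no covariate. The number of arrays limits the precision. The script was tested on simulated data.

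Ratios to Acta1 used unnormalized values and exact permutation. An array carried the poly-A signal where the dap control read over 500, and had a high Gapdh ratio above 3. The genes, marker lists and alternatives were chosen with earlier results of these data known. Named genes are the 6 isoform genes, Des, list genes drawn from the 3 of smallest p in each KO against WT comparison, and the 5 genes of highest r per isoform gene; Pax7, Myf5, Vcam1, Cdh15, Myog, Myh1, Myh4 and the heart genes fall outside that rule and were named after their values were seen. Alternatives covered normalization, pseudocount, the dim-gene filter, probe sets, groups in the fit, array weights, batch, title codes and leaving out arrays. Promoter windows came from RefSeq (GRCm38.p6). Figures were made with Python 3.11.15, pandas 2.3.3 and matplotlib 3.10.9.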

Additional observations from a re-analysis of the deposited data

Results flagged for a closer look

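Within the groups, 4 of 32 sets of values (each probe set in each group) held an array that stood apart by Dixon's test on normalized log2 values. Chance gives about 1 in 20. The Myh3 and Myh8 values printed here are intensities. Myh3 read 95.4 on KO_Adult replicate 2 against 162 to 200 on the other 4 arrays. Myh8 read 277 on KO_Aged replicate 3, which also had a high Gapdh ratio, against 144 to 183 on the other 3. For Acta1 the normalized log2 value was 14.18 on WT_Adult replicate 2 against 14.63 to 14.78 on the others (intensities 17854 against 21172 to 40949). On KO_Aged replicate 1 it was 14.71 against 14.78 on the others (intensities 26098 against 29970 to 31277). Those others were tied after normalization, so any gap would have been flagged.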

How the results depend on the processing

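The fall of Actc1 in KO muscle kept its call in every setting run. No paired analysis was possible because the labels give no replicate numbers that the groups share. The count of the 6 genes called went from 4 to 1 in adult and from 3 to 1 in aged KO against WT with the upper 40% of genes tested, where the dim genes are not tested. With the batch term it went from 1 to 0 for age in both genotypes, and for age in WT the title codes did the same. On the arrays without poly-A signal it went from 4 to 1 in adult KO against WT and from 1 to 0 for age in KO. Also leaving out the 2 arrays of high Gapdh ratio, chosen after seeing the data, it was 2 and 0. With only the compared groups in the fit it was 0 for age in KO. Except for fewer genes or arrays, the cause was not tested.

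Leaving out each array in turn, the counts were 4 for adult and 3 to 4 for aged KO against WT, 1 for age in WT, 0 to 2 for age in KO and 0 to 1 for the interaction, and 9 to 10 ratios to Acta1 passed. The counts for age in KO and the interaction moved without KO_Aged replicate 1 (Myl4 passed, at 1.27 and 1.19), and the former without KO_Aged replicate 4. Myl4 in aged KO against WT also passed with no normalization (0.90, limma adjusted p = 0.0414).

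Directions turned only for differences that were not called. Without normalization Myl4 was -0.10 in adult KO against WT, and Myh3 -0.030, Myl4 -0.0022 and Acta1 -0.24 for age in WT. With median centring Acta1 was -0.072 for age in WT and Actc1 -0.22 for the interaction. With the mean of probe sets Myl4 was -0.44 in adult KO against WT and -0.14 for age in WT. With array weights Myl4 was -0.16 and Acta1 0.084 in adult KO against WT, Tnnt2 -0.0061 and Myl4 -0.024 for age in WT, and Actc1 -0.20 for the interaction. With the batch term or the title codes Myh3 was -0.39 and Acta1 -0.23 for age in WT. Without the arrays of high Gapdh ratio Tnnt2 was -0.36 for age in KO, and the interactions were -0.60 for Tnnt2, -0.0075 for Myl4 and -0.53 for Actc1. With the batch term added, Myh8 was -0.077 and Myl4 -0.10 in aged KO against WT, Myh3 -0.39 and Acta1 -0.24 for age in WT, Tnnt2 -0.32 for age in KO, and the interactions -0.50 for Tnnt2 and -0.18 for Myl4. On the arrays without poly-A signal and with a low Gapdh ratio, Tnnt2 was -0.31 for age in KO. The second Myl4 probe set gave ratios to Acta1 of -1.04 in adult KO against WT and -0.47 for age in WT.

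Leaving out 1 array turned the following: the interaction of Actc1 (-0.26 to 0.22) and Tnnt2 (-0.32 to 0.32), Myl4 in adult KO against WT (-0.12 to 0.12), and for age in WT Acta1 (-0.050 to 0.10), Myh3 (-0.055 to 0.34) and Myl4 (-0.064 to 0.21). Tnnt2 for age in KO ran from -0.072 to 0.57, its ratio to Acta1 from -0.24 to 0.36, and the Myl4 ratio in adult KO against WT from -0.042 to 0.33.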
